A study of Mus musculus with 4 samples.

Results

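The genes described here encode 10 subunits of the NuRD complex (nucleosome remodelling and deacetylase): *Chd4*, *Mbd3*, *Mbd2*, *Mta1*, *Mta2*, *Mta3*, *Hdac1*, *Hdac2*, *Gatad2a* and *Gatad2b*. They were chosen by name, and each symbol was matched to a GENCODE vM1 identifier among the 37310 genes of the count table. RNA-seq was performed in HATX mouse embryonic stem cells (mESCs), a line of mixed genomic background that the study describes as haploid, and that carries on the X chromosome an *Xist* transgene switched on by doxycycline. One group was HATX WT and the other was clone 2 of HATX *Spen* KO, in which most of the *Spen* gene is deleted per the study, and each had 2 libraries. Both were grown on gelatin in serum and LIF, and no treatment is stated for either. Each group is 1 cell line, so any other difference between clone 2 and the WT line is part of every comparison. Nothing states that the libraries of a group came from separate cultures, so p-values measure the spread between these libraries, which may be technical. Gene-level RNA in bulk samples also cannot tell fewer cells of a type apart from less RNA per cell.

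NuRD couples an ATP-dependent nucleosome remodeller, Chd4, to a pair of histone deacetylases, Hdac1 and Hdac2. Mta proteins are the scaffold that holds the deacetylases, Mbd2 or Mbd3 joins this part to the rest (a complex holds one or the other), and Gatad2a or Gatad2b links the Mbd protein to Chd4. In mESCs the complex tempers transcription of pluripotency genes, and cells without Mbd3 commit poorly to differentiation. Spen is an RNA-binding repressor that contacts histone deacetylase complexes, which is the reason to ask how the RNA of these subunits stands where *Spen* is deleted.

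Total counts were 36667685 to 43835004 in WT and 54715889 to 61908422 in the other group. *Spen* itself had 3716 and 3047 normalized counts (counts divided by DESeq2's size factor of each library) in WT and 7797 and 6242 in the *Spen* KO libraries, which is 1.05 ± 0.21 (SE) on the log2 scale (DESeq2 adjusted p = 7.7e-06). Gene-level counts do not show which exons they came from, so they neither check nor contradict a deletion within the gene, and the group is called KO-labelled below. The 6 mESC markers summed to 169398 to 174307 normalized counts in WT and 179682 to 186149 in the KO-labelled libraries. The 7 fibroblast markers, for feeder cells, summed to 172 to 192 against 421 to 485, of which *Thy1* gave 128 ± 13.6 and 385 ± 40.9 (SD, n = 2). *Thy1* was called higher (log2 fold change 1.59 ± 0.23, DESeq2 adjusted p = 1.62e-10). Of the others *Col1a1* was at 24.8 and 48.7, *Col1a2* at 13.2 and 5.74 and *Col3a1* at 10.7 and 9.05. DESeq2 called none of these, while edgeR's quasi-likelihood test called *Col1a1* higher (adjusted p = 0.0399). *Postn*, *Lum* and *Dcn* were at or near 0. The 5 primitive endoderm markers summed to 331 to 394 against 188 to 206. All 5 had lower means in the KO-labelled group, and DESeq2 called *Gata4* (log2 fold change -1.13 ± 0.31, adjusted p = 0.0014) but none of the others. The part of these other cell types in the results below was not tested.

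Of the 10 NuRD genes, 3 were higher where *Spen* is labelled deleted (*Mta2*, *Gatad2a*, *Gatad2b*), 4 were lower (*Mta1*, *Mta3*, *Hdac2*, *Mbd3*) and 3 did not pass (*Chd4*, *Hdac1*, *Mbd2*). The threshold was a DESeq2 adjusted p under 0.05, adjusted over all 17710 genes tested. Across those genes 16.4% were called higher and 15.8% lower, 32.3% in all. Among the 9148 genes whose mean reached 424 normalized counts, the level of the lowest NuRD gene, the shares were 26.4% and 20.6%, or 47.1% in either direction. All 10 genes were expressed and had an adjusted p, with 361 counts or more in every library. Their median log2 fold change was -0.18, beside 0.00 over all genes tested and 0.05 over those of similar or higher level. The changes were small. None of the 10 passed the study's rule of at least a 2-fold change and an adjusted p under 0.001, which 4.51% of all tested genes passed. Without the fold minimum 6 of the 10 had an adjusted p under 0.001, beside 17.3% of all genes tested and 27.2% of those at similar or higher level. The ranges of the 2 groups were apart for 9 of the 10 genes, with *Hdac1* the exception, as they were for 78.1% of genes at these levels and 70.2% of all tested genes. Libraries of 1 group differed by 0.01 to 0.31 on the log2 scale, and the absolute differences between groups were 0.03 to 0.68.

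**Figure D1:**
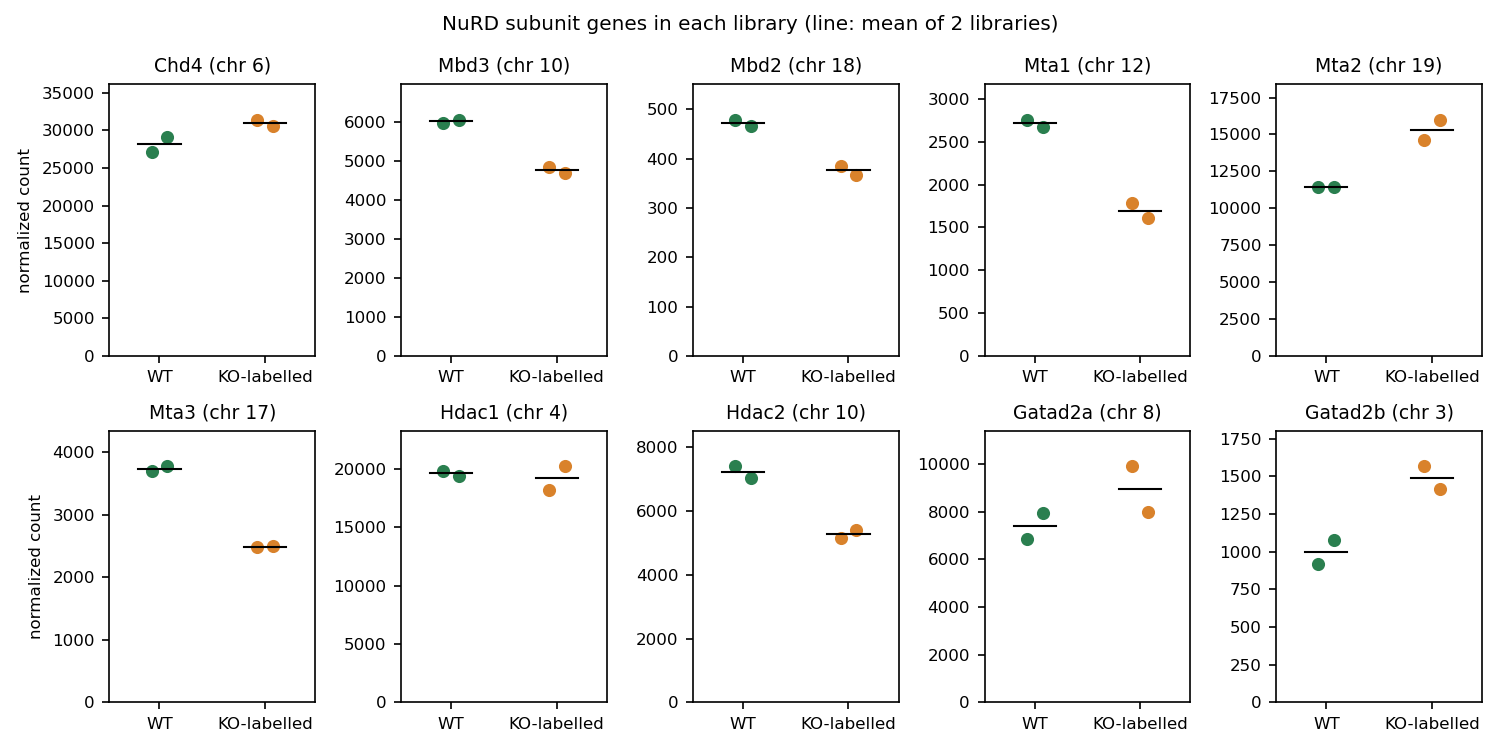
Normalized counts (y axis, linear from 0) of the 10 NuRD genes in 2 WT libraries (green) and 2 KO-labelled libraries (orange), with a line at each group's mean. *Mta1*, *Mta3*, *Hdac2* and *Mbd3* lie lower and *Mta2* and *Gatad2b* higher in both KO-labelled libraries, the groups of *Gatad2a* nearly touch, and those of *Hdac1* overlap.

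Because most of these subunits have a close relative in the same position of the complex, the coding sequences were compared to see whether reads could pass from one paralog to another. Aligned coding bases were identical at 75.9% between *Hdac1* and *Hdac2*, 74% between *Mta1* and *Mta3*, 71.6% between *Mta2* and *Mta3*, 71.1% between *Mbd2* and *Mbd3*, 68.7% between *Mta1* and *Mta2* and 65.8% between *Gatad2a* and *Gatad2b*. The following lines show, for 3 pairs whose levels are set against each other below, the longest exact stretch the coding sequences share (capitals) with the bases around it. They are GENCODE vM1 transcript sequence, 5′ to 3′, and the stretches are 17 to 20 bases long where a read has 75.

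Mta1, coding bases 40 to 59 in capitals: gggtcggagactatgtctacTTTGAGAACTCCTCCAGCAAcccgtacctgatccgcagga

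Mta2, coding bases 40 to 59 in capitals: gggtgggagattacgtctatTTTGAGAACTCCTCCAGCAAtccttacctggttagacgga

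Mta1, coding bases 49 to 68 in capitals: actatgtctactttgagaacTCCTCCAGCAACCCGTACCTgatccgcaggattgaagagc

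Mta3, coding bases 49 to 68 in capitals: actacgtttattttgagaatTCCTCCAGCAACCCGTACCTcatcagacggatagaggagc

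Hdac1, coding bases 241 to 257 in capitals: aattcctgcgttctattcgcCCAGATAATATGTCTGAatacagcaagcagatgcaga

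Hdac2, coding bases 244 to 260 in capitals: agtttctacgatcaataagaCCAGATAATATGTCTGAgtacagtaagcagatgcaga

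No stretch of 75 bases was shared between any of the 6 pairs over all their annotated transcripts. None of the 10 genes overlaps an exon of another annotated gene on either strand. At 95% identity over at least 75 bases, only *Hdac1* among the 10 had copies elsewhere in the genome, which covered 63.3% of its exonic bases.

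The Mta scaffolds moved in opposite directions. *Mta1* and *Mta3* fell by 37.5% and 33.3%, the largest reductions among the 10 genes, while *Mta2*, the most abundant of the 3, rose by 33.8%. *Mta1* (ENSMUSG00000021144.8, chromosome 12, 114336489 to 114375417 on mm9, plus strand) had 2756 and 2676 normalized counts in WT and 1785 and 1610 in the KO-labelled libraries. Both KO-labelled values lay below both WT values, by more than the libraries of either group differed. On the log2 scale the difference was -0.68 ± 0.10 (SE, DESeq2 adjusted p = 8.16e-11). *Mta3* (ENSMUSG00000055817.9, chromosome 17, 84105503 to 84223055, plus strand) had 3698 and 3777 in WT, against 2482 and 2505 in the KO-labelled libraries, the closest agreement within groups of any of the 10 genes. Its log2 fold change was -0.58 ± 0.08 (DESeq2 adjusted p = 7.1e-11). *Mta2* (ENSMUSG00000071646.3, chromosome 19, 9016365 to 9026793, plus strand) had 11410 and 11460 in WT and 14613 and 15989 in the KO-labelled libraries. It was higher in both, with a log2 fold change of 0.42 ± 0.07 (DESeq2 adjusted p = 7.24e-08). The RNA of the Mta position as a whole, taken as normalized counts per kilobase of exon summed over the 3 genes, was 4220 ± 1.42 in WT and 4653 ± 200 in the KO-labelled libraries (SD, n = 2), a ratio of 1.1. Dividing each KO-labelled level by the fold of its chromosome's median (described below) turned that ratio to 0.937.

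Of the deacetylases, *Hdac2* fell and *Hdac1* did not pass. *Hdac2* (ENSMUSG00000019777.9, chromosome 10, 36694350 to 36721695, plus strand) had 7401 and 7027 normalized counts in WT and 5162 and 5401 in the KO-labelled libraries. Both KO-labelled libraries were lower, by 26.8% on average, at -0.45 ± 0.08 on the log2 scale (DESeq2 adjusted p = 3.94e-08). *Hdac1* (ENSMUSG00000028800.9, chromosome 4, 129193348 to 129219957, minus strand) had 19845 and 19408 in WT, against 18196 and 20233 in the KO-labelled libraries. The KO-labelled values enclosed the WT values, and the log2 fold change was -0.03 ± 0.07 (DESeq2 adjusted p = 0.809). *Hdac1* counts are uncertain because of the copies named above. The largest of them, 1951 matched bases within the annotated gene *Gm10093* on chromosome 17, was assigned 320 and 404 counts in WT and 434 and 572 in the KO-labelled libraries. *Hdac1* was assigned 14968 counts or more in each library.

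The Mbd subunits stood lower in both KO-labelled libraries by almost the same proportion. Mbd3 is the form required for NuRD assembly in mESCs, and Mbd2 binds methylated DNA. *Mbd3* (ENSMUSG00000035478.8, chromosome 10, 79855284 to 79862295, minus strand) had 5966 and 6045 normalized counts in WT and 4840 and 4684 in the KO-labelled libraries. It fell by 20.7%, at -0.33 ± 0.07 on the log2 scale (DESeq2 adjusted p = 6.17e-05). *Mbd2* (ENSMUSG00000024513.9, chromosome 18) had 479 and 466 in WT, against 385 and 368 in the KO-labelled libraries. The groups did not overlap and the log2 fold change was -0.33 ± 0.17, but at these lower counts it did not pass (DESeq2 adjusted p = 0.139). edgeR's quasi-likelihood test did call *Mbd2* lower (adjusted p = 0.0317).

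The remodeller *Chd4* (ENSMUSG00000063870.6, chromosome 6, 125045999 to 125080609, plus strand) had 27121 and 29110 normalized counts in WT, against 31383 and 30582 in the KO-labelled libraries. The KO-labelled values were above the WT values, but by little. The log2 fold change of 0.14 ± 0.07 did not pass (DESeq2 adjusted p = 0.096), although with upper-quartile size factors it was 0.18 and passed (adjusted p = 0.0242).

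The Gatad2 linkers were both called higher, with unequal certainty. *Gatad2b* (ENSMUSG00000042390.5, chromosome 3, 90145576 to 90162042, plus strand) had 921 and 1080 normalized counts in WT, against 1566 and 1412 in the KO-labelled libraries. The groups were well apart, and the log2 fold change was 0.57 ± 0.12 (DESeq2 adjusted p = 3.62e-05), the largest increase among the 10 genes. *Gatad2a* (ENSMUSG00000036180.7, chromosome 8, 72430968 to 72520278, minus strand) had 6837 and 7964 in WT and 9904 and 7988 in the KO-labelled libraries. WT replicate 2 and KO-labelled replicate 2 were almost equal, so that the groups barely failed to overlap. The log2 fold change was 0.27 ± 0.10, with a DESeq2 adjusted p of 0.0275. This call was lost without WT replicate 1 (0.17, adjusted p = 0.377), without WT replicate 2 (0.39, adjusted p = 0.341) and without KO-labelled replicate 1 (0.12, adjusted p = 0.532), and edgeR gave an adjusted p of 0.0545. The other 6 called genes kept their call without any single library, the highest adjusted p being 0.0308, for *Gatad2b*.

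Genes of some chromosomes were shifted as a group between the lines, which bears on several of these values. Over genes averaging 50 normalized counts or more, the median on the log2 scale was 0.38 on chromosome 19 (457 genes), -0.35 on chromosome 10 (613 genes), -0.32 on chromosome 12 (466 genes) and -0.21 on chromosome 4 (894 genes), and lay between -0.23 and 0.16 on the others. Why chromosomes differ was not tested. *Mta2* on chromosome 19 and *Mbd3* and *Hdac2* on chromosome 10 stood near the middle of their chromosomes, above 54%, 51.4% and 37.4% of those genes. When each chromosome's median was removed in the fit, *Mta2* was at 0.04 (DESeq2 adjusted p = 0.78), *Mbd3* at 0.01 (0.946) and *Hdac2* at -0.10 (0.345), and none was called.

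**Figure D2:**
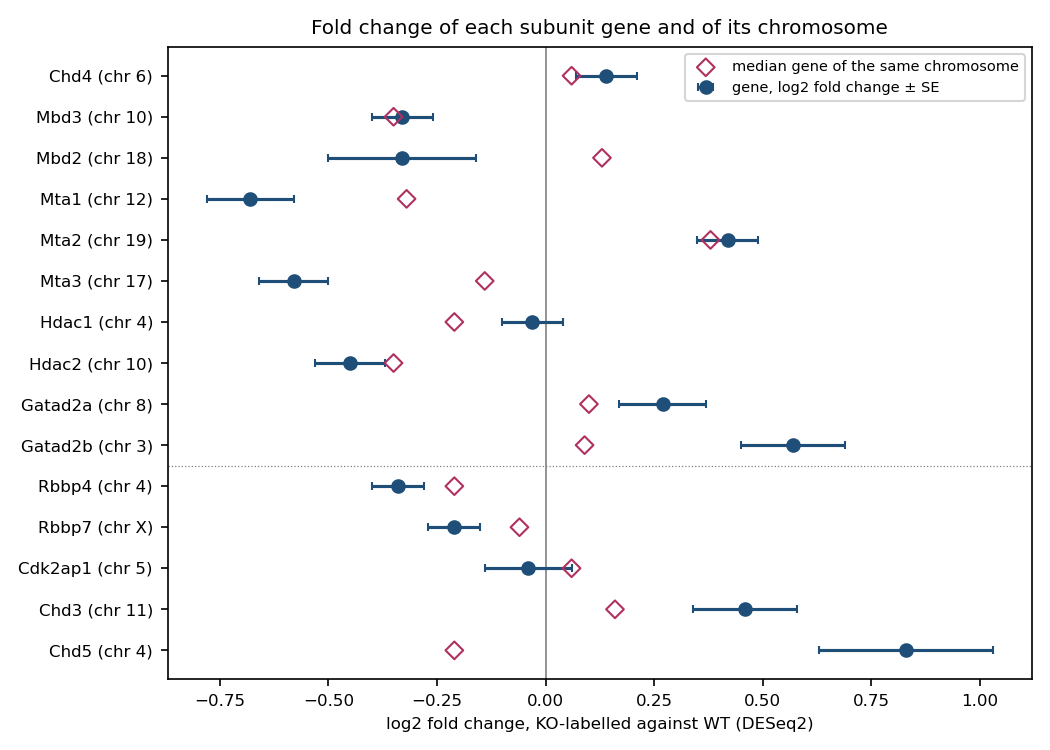
Log2 fold change, KO-labelled against WT (x axis), of the 10 NuRD genes and, under the dotted line, of 5 further genes (filled points, bars ± SE), with the median of each gene's chromosome (open diamonds). *Mta2*, *Mbd3* and *Hdac2* lie close to their chromosome's median, and *Mta1*, *Mta3*, *Gatad2b*, *Mbd2* and *Chd5* lie apart from it.

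*Mta1*, *Mta3* and *Gatad2b* kept their calls against that background. *Mta1* stood above 19.5% of the genes of chromosome 12, and its log2 fold change beyond the chromosome median was -0.36 (DESeq2 adjusted p = 0.00167). *Mta3* stood above 13.7% of the genes of chromosome 17, with -0.45 (1.28e-06). *Gatad2b* stood above 89.5% of the genes of chromosome 3, with 0.48 (0.00087). In this fit the count was 1 higher and 3 lower, the third being *Mbd2*, which was at -0.46 (0.0308) on a chromosome whose median was 0.13. *Gatad2a* was at 0.17 and no longer called (0.234), *Hdac1* was at 0.18 (0.056) and *Chd4* at 0.08 (0.421). The median of the 10 genes was 0.02. Of all tested genes 12.4% were called higher and 14.9% lower, 27.2% in all. Shares over genes of similar or higher level were not taken for this fit. Genes within 1 Mb were examined in the same way. The median of the 30 neighbours of *Mta2* was 0.42 and that of the 95 neighbours of *Mbd3* was -0.36, equal or nearly equal to the genes themselves. *Hdac2* had only 1 such neighbour, at -1.05, lower than its own -0.45. The 20 neighbours of *Mta1* were at -0.32, the 9 of *Mta3* at -0.31 and the 38 of *Gatad2b* at 0.28, nearer to 0 than those genes in each case.

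**Figure D3:**
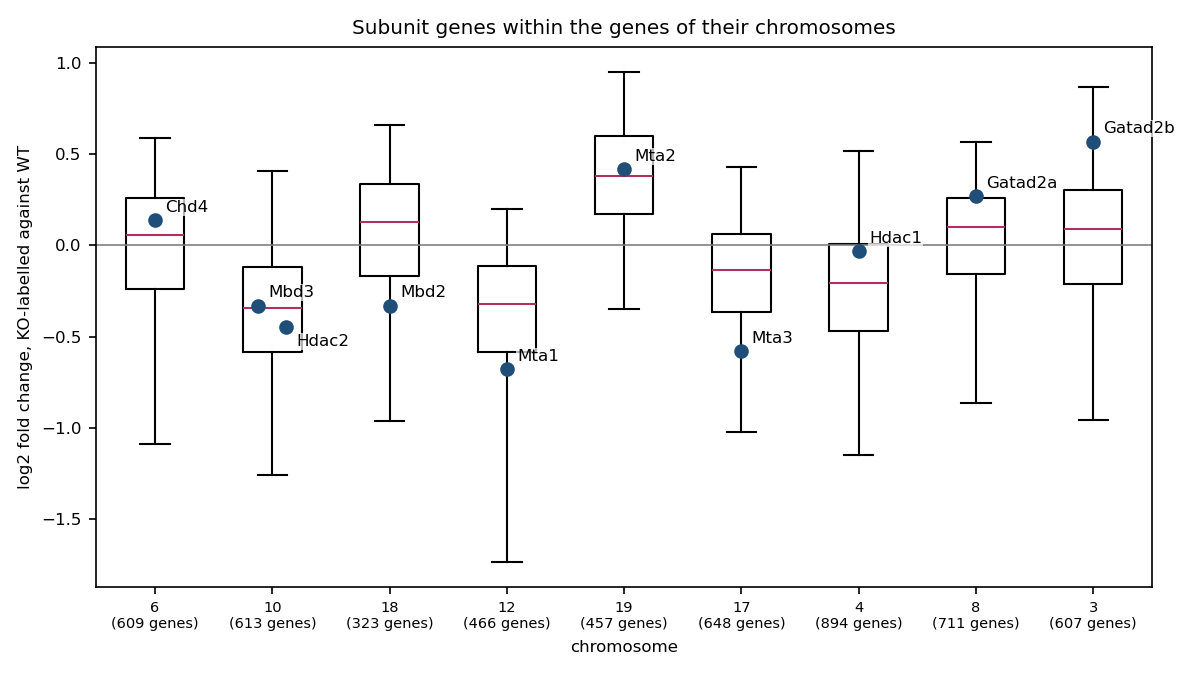
Log2 fold changes (y axis) of all genes averaging 50 normalized counts or more on the chromosomes that hold NuRD genes (boxes are quartiles, the line is the median, whiskers run from the 5th to the 95th percentile), with the NuRD genes as points. *Mta2* and *Mbd3* sit at the middle of their boxes, while *Mta1*, *Mta3*, *Mbd2* and *Gatad2b* lie outside theirs and *Gatad2a* at the edge.

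Levels were then compared between genes as normalized counts per kilobase of exon. Exon length was the union over transcripts, which for some genes far exceeds the longest transcript. These lengths were 8744 and 4663 bases for *Rbbp4*, and 3445 and 2038 for *Hdac1*. The order depends on this choice and was not repeated with longest transcript length. The order was taken within each group, over the 10 genes and 5 further genes of the complex and the Chd family. In WT it was *Rbbp7* (7352), *Hdac1* (5697), *Chd4* (3506), *Mbd3* (3022), *Mta2* (2794), *Rbbp4* (2744), *Hdac2* (1610), *Gatad2a* (1345), *Cdk2ap1* (1342), *Mta1* (875), *Mta3* (551), *Gatad2b* (525), *Chd3* (232), *Mbd2* (147) and *Chd5* (26.5). The libraries of neighbours overlapped for *Gatad2a* and *Cdk2ap1* and for *Mta3* and *Gatad2b*. In the KO-labelled libraries the order was *Rbbp7* (6369), *Hdac1* (5578), *Chd4* (3864), *Mta2* (3738), *Mbd3* (2397), *Rbbp4* (2168), *Gatad2a* (1626), *Cdk2ap1* (1307), *Hdac2* (1178), *Gatad2b* (781), *Mta1* (547), *Mta3* (367), *Chd3* (320), *Mbd2* (117) and *Chd5* (47.3), and only *Chd4* and *Mta2* overlapped. Pairs that changed places, with no overlap in either group, were *Mbd3* above *Mta2*, *Hdac2* above *Gatad2a* and *Cdk2ap1*, and *Mta1* above *Gatad2b*, each in WT only. After division by the fold of each chromosome's median, *Hdac2* was again above *Cdk2ap1* and the KO-labelled libraries of the other 3 pairs overlapped. The changes of place also rest on union length. Union and longest transcript were 4093 and 3135 bases for *Mta2*, and 1987 and 1662 for *Mbd3*. Changes of place were not examined with longest transcript length. Over all 4 libraries *Hdac1* stood at percentile 97.4 of 18271 protein-coding genes and *Mbd2*, the lowest of the 10, at 52.6. Near-identical copies cover 63.3% of the exonic bases of *Hdac1*, 46.9% of those of *Rbbp7* and 66.5% of those of *Cdk2ap1*. The levels of these genes are therefore uncertain. In each position 1 paralog gave most of the RNA in WT: *Mta2*, *Hdac1*, *Mbd3* and *Gatad2a*.

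The Mta position showed the largest change in how paralogs divided this level. *Mta2* made up 66% and 66.4% of the Mta sum in WT, against 79.1% and 81.5% in the KO-labelled libraries, 14.1 percentage points more. *Mta1* went from 20.7% ± 0.429 to 11.8% ± 1.37 and *Mta3* from 13.1% ± 0.199 to 7.9% ± 0.288 (SD, n = 2). *Hdac1* made up 77.7% and 78.2% of the Hdac1 and Hdac2 sum in WT and 82.1% and 83% in the KO-labelled libraries, 4.56 points more. That share carries the uncertainty from the copies of *Hdac1*. *Gatad2b*, the lesser linker, went the other way, from 28% and 28.1% to 31.3% and 33.8%. *Mbd3* held 95.3% and 95.5% in WT and 95.3% and 95.4% in the KO-labelled libraries, so the split between Mbd3 and Mbd2 RNA moved by less than the spread between libraries. In the first 3 positions the groups did not overlap, with a two-sided exact permutation p of 0.333 in each, which is the smallest that 2 against 2 libraries can give. For the Mbd position the exact p was 1. The size of these changes depended on the chromosome medians. With each chromosome's median removed, an alternative added after the data were seen, the *Mta2* share was 71% and 74% in the KO-labelled libraries, 6.28 points above WT, and the *Hdac1* share was 3.12 points above. *Gatad2b* was then 4.66 points above WT, and *Mbd3* held 96.6% in both KO-labelled libraries, 1.24 points above.

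**Figure D4:**
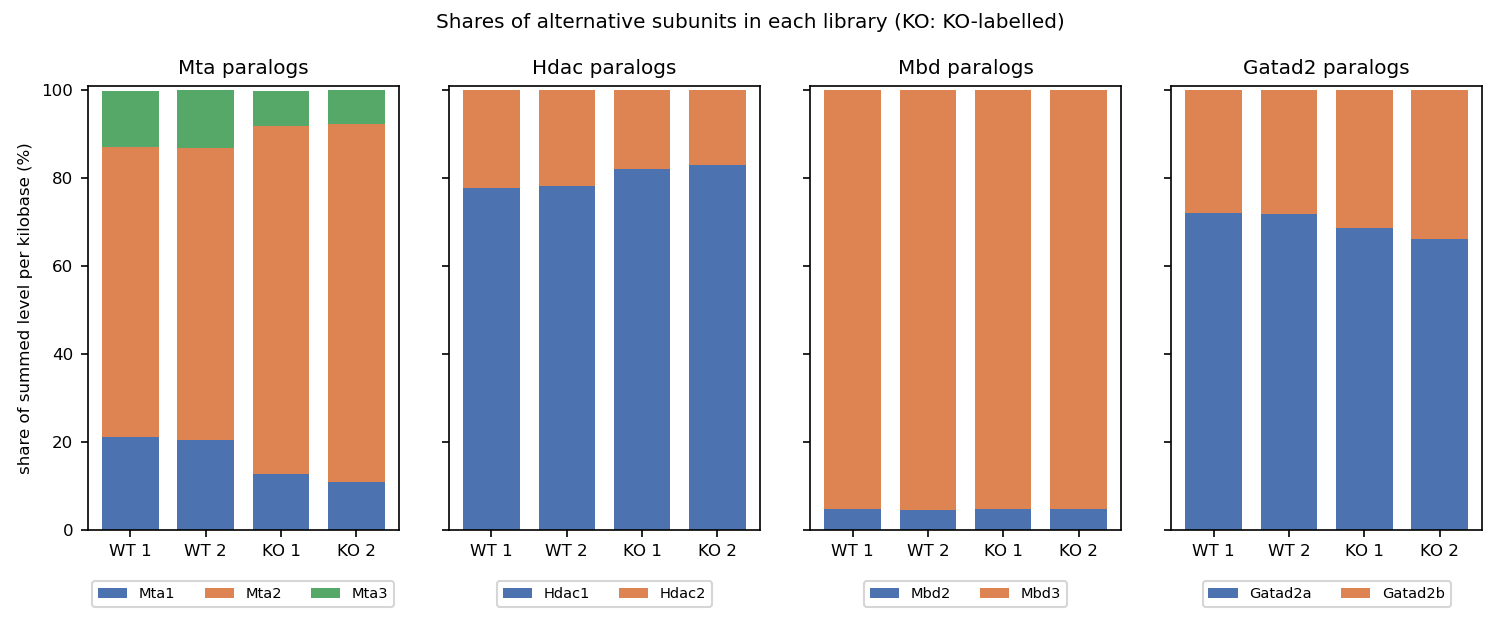
Share (%, y axis from 0) of each paralog in the summed normalized count per kilobase of its position, in each of the 4 libraries. *Mta2* takes about 66% of the Mta level in both WT libraries and 79.1% or more in both KO-labelled libraries, whereas *Mbd3* stays near 95% in all 4.

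Summed over paralogs, the Mbd position was at 3169 ± 25.3 normalized counts per kilobase in WT and 2514 ± 59.6 in the KO-labelled libraries, a ratio of 0.793. The ratio was 0.925 for Hdac1 and Hdac2, a sum that includes the uncertain *Hdac1* counts, and 1.29 for the Gatad2 pair. No WT value overlapped a KO-labelled value in any of these sums. With chromosome medians removed the ratios were 0.995 for Mbd, where the groups then overlapped, 1.09 for Hdac1 and Hdac2, turning its direction, and 1.2 for Gatad2.

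The remaining NuRD subunits and the relatives of Chd4 also moved both ways. Rbbp4 and Rbbp7 are histone-binding proteins that NuRD shares with other complexes. *Rbbp4* (ENSMUSG00000057236.9, chromosome 4) had 23992 and 23998 normalized counts in WT and 18927 and 18990 in the KO-labelled libraries. It fell by 21%, with a log2 fold change of -0.34 ± 0.06 (DESeq2 adjusted p = 7.31e-07), or -0.13 (0.101) with chromosome medians removed. *Rbbp4* overlaps other genes on the opposite strand over 18.1% of its exonic bases. *Rbbp7* (X chromosome) fell by 13.4%, with a log2 fold change of -0.21 ± 0.06 (DESeq2 adjusted p = 0.00642). That call was lost with chromosome medians removed (-0.15, adjusted p = 0.0683) and without any 1 of the 4 libraries (adjusted p from 0.0564 without KO-labelled replicate 2 to 0.183 without KO-labelled replicate 1). The small subunit gene *Cdk2ap1* was at -0.04 ± 0.10 (DESeq2 adjusted p = 0.843). Near-identical copies elsewhere cover 46.9% of the exonic bases of *Rbbp7*, 66.5% of those of *Cdk2ap1* and 7.85% of those of *Rbbp4*, so their counts are uncertain.

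The remodellers Chd3 and Chd5 can take the place of Chd4 in NuRD, and both were higher. *Chd3* (chromosome 11) had 2205 and 1726 normalized counts in WT and 2587 and 2824 in the KO-labelled libraries, with a log2 fold change of 0.46 ± 0.12 (DESeq2 adjusted p = 0.000483). Its WT libraries differed widely, and the call was lost without WT replicate 2 (0.30, adjusted p = 0.0954) or KO-labelled replicate 2 (0.40, 0.0672), and with chromosome medians removed it was at 0.30 (0.0418). *Chd5* (chromosome 4), best known from neurons, had 231 and 278 in WT and 468 and 437 in the KO-labelled libraries. Its log2 fold change of 0.83 ± 0.20 (DESeq2 adjusted p = 0.000159) became 1.04 (1.31e-06) with chromosome medians removed, against a chromosome 4 median of -0.21. Even so, *Chd4* gave 91% of the Chd3, Chd4 and Chd5 level per kilobase or more in every library, and *Chd5* 1.14% or less.

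Next, 66 genes of related proteins and complexes were examined, among them the 5 just described. Of these 30 were higher, 12 lower and 24 not called, where 16.4% and 15.8% of all genes tested, and 26.4% and 20.6% of those at the level of the NuRD genes or above, were called, and their median log2 fold change was 0.20. With chromosome medians removed 19 were higher and 8 lower (12.4% and 14.9% of all genes tested), and the median was 0.11. Leaving out single libraries left 16 to 21 higher and 5 to 10 lower. The lowest counts were 16 higher without KO-labelled replicate 2 and 5 lower without WT replicate 2, while 17 were higher without KO-labelled replicate 1 and 19 without WT replicate 1.

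Among 12 proteins that bind NuRD or Chd4, 5 genes were higher, 2 lower and 5 not called. Shares called higher and lower were 16.4% and 15.8% over all genes tested, and 26.4% and 20.6% over those at NuRD levels or above. A gene among those not called shares 82.1% of its exonic bases with another gene on its strand, so its counts are uncertain. Removing chromosome medians gave 3 higher and 3 lower (12.4% and 14.9% of all genes tested), and the median went from 0.19 to 0.05. *Sall4*, a zinc finger factor of mESCs that carries a NuRD-binding motif, went from 33054 ± 753 to 43544 ± 530 normalized counts (SD, n = 2), or by 0.40 ± 0.06 on the log2 scale (DESeq2 adjusted p = 3e-09). *Pwwp2a*, which binds the Mta and Hdac part of the complex, rose by 0.50 ± 0.09 (1.16e-06) on the log2 scale and *Cbx3*, a heterochromatin protein, by 0.30 ± 0.08 (0.00119). *Bcl11b*, a zinc finger factor at low level here, went from 134 ± 5.15 to 48.8 ± 6.23 (log2 fold change -1.45 ± 0.36, DESeq2 adjusted p = 0.000384), and *Pwwp2b* was at -0.58 ± 0.19 (0.0107). Calls were lost for *Bcl11b* without WT replicate 2 (adjusted p = 0.0656), for *Cbx3* without WT replicate 2 (0.0557) or KO-labelled replicate 1 (0.115), and for *Pwwp2b* without WT replicate 2 (0.357), KO-labelled replicate 1 (0.191) or KO-labelled replicate 2 (0.0876). All 5 named genes kept direction and call with chromosome medians removed.

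In the other complexes that hold Hdac1 and Hdac2 (Sin3, CoREST and MiDAC), 9 of 21 genes were higher, 3 lower and 9 not called, beside 16.4% and 15.8% of all genes tested and 26.4% and 20.6% of those at NuRD levels or above. Removing chromosome medians gave 7 higher and 1 lower (12.4% and 14.9% of all genes tested), and the median went from 0.21 to 0.11. *Sin3a*, the scaffold of the Sin3 complex, had 8981 and 9375 normalized counts in WT, against 14623 and 15130 in the KO-labelled libraries. The KO-labelled values were far above WT, with a log2 fold change of 0.70 ± 0.07 (DESeq2 adjusted p = 1.94e-22), or 0.56 (1.01e-14) with chromosome medians removed. *Rcor2*, the CoREST scaffold typical of mESCs, went from 7647 ± 169 to 11992 ± 384 (0.65 ± 0.07, DESeq2 adjusted p = 1.1e-18), while its paralog *Rcor1* went from 1741 ± 186 to 1356 ± 67.3 (-0.36 ± 0.11, 0.00666). With chromosome medians removed *Rcor2* was at 0.27 (0.0011) and *Rcor1* at -0.04 (0.846). *Trerf1*, a MiDAC subunit, was at 0.59 ± 0.14 (DESeq2 adjusted p = 0.000253). The CoREST subunits *Hmg20b* and *Kdm1a*, a histone demethylase, were at -0.74 ± 0.12 (1.01e-08) and -0.25 ± 0.07 (0.000764), and with chromosome medians removed they were at -0.39 (0.00588) and -0.05 (0.684). Leaving out 1 library ended the call of *Rcor1* (WT replicate 2, adjusted p = 0.304; KO-labelled replicate 1, 0.0571; KO-labelled replicate 2, 0.176), of *Kdm1a* (WT replicate 1, 0.0557; KO-labelled replicate 1, 0.0508) and of *Trerf1* (KO-labelled replicate 1, 0.0548).

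**Figure D5:**
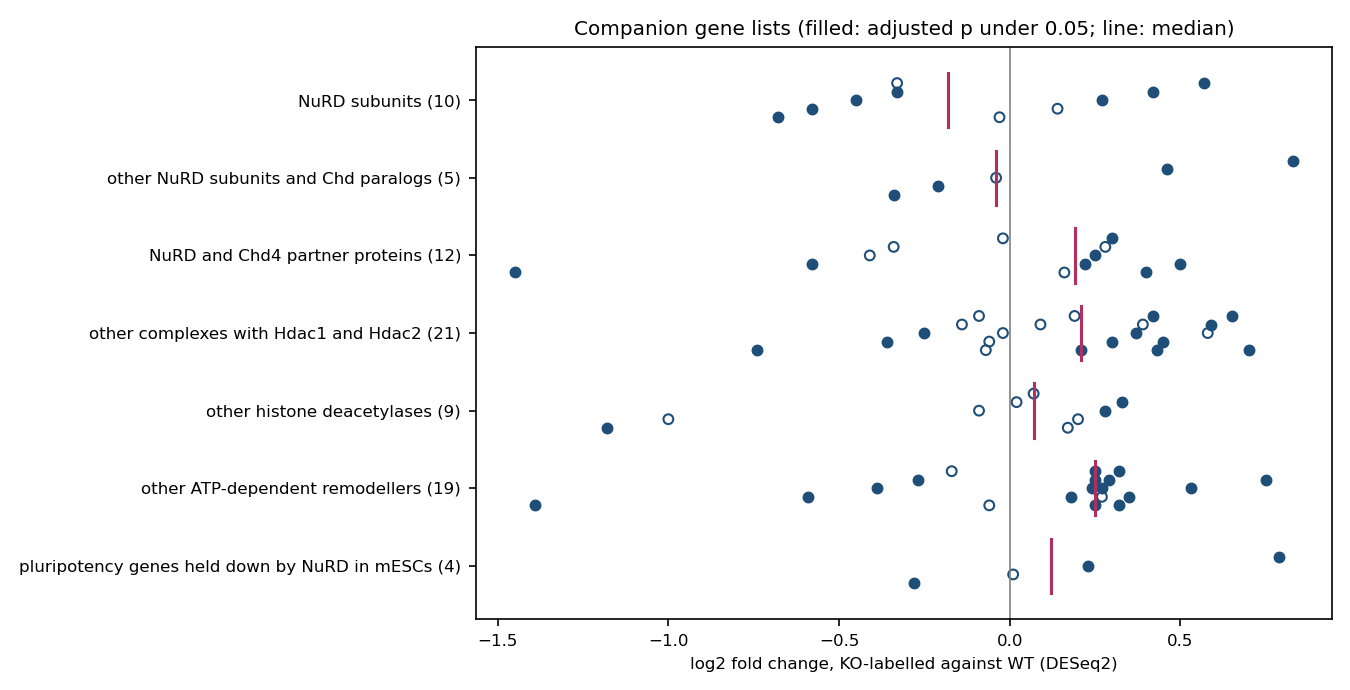
Log2 fold change, KO-labelled against WT (x axis), of every gene in the NuRD list and 6 other lists, with filled points where the DESeq2 adjusted p was under 0.05 and a red line at each list's median. The NuRD genes spread to both sides of 0 with a median of -0.18, and the medians for the Sin3, CoREST and MiDAC genes and for the other remodellers are 0.21 and 0.25.

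Of the 9 other histone deacetylase genes, 2 were higher, 1 lower and 6 not called, near the 32.3% called in either direction over all genes tested. Of these 3 calls, DESeq2 kept that of *Hdac11* (adjusted p = 8.15e-05) when chromosome medians were removed. *Hdac3*, the deacetylase of the SMRT and NCoR complexes that Spen contacts, had 3162 and 3334 normalized counts in WT and 4002 and 4187 in the KO-labelled libraries. Both KO-labelled values were higher, with a log2 fold change of 0.33 ± 0.08 (DESeq2 adjusted p = 0.000402). The call was lost with chromosome medians removed (0.20, adjusted p = 0.0522) and without KO-labelled replicate 2 (0.30, 0.0611). *Hdac5* was at 0.28 ± 0.09 (DESeq2 adjusted p = 0.0133), a call lost with chromosome medians removed (0.428), without WT replicate 1 (0.266), without KO-labelled replicate 1 (0.237) and without KO-labelled replicate 2 (0.0549). *Hdac11* went from 219 ± 24.6 to 96.8 ± 9.63 (-1.18 ± 0.28, DESeq2 adjusted p = 0.000171), a call lost without WT replicate 2 (0.0735).

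Of the 19 genes for other ATP-dependent remodellers, 12 were higher, 4 lower and 3 not called. Shares called higher and lower were 16.4% and 15.8% of all genes tested, and 26.4% and 20.6% at NuRD levels or above. With chromosome medians removed 7 were higher and 3 lower, beside 12.4% and 14.9% of all genes tested, and the median went from 0.25 to 0.14. *Ep400*, the ATPase of the TIP60 complex, had 3528 and 3174 normalized counts in WT and 5977 and 5303 in the KO-labelled libraries (log2 fold change 0.75 ± 0.09, DESeq2 adjusted p = 7.46e-15). Its relative *Srcap* was at 0.53 ± 0.11 (9.9e-06) and *Smarcd1*, a BAF complex subunit, at 0.35 ± 0.07 (1.92e-05). *Chd7*, a remodeller of the same family as Chd4, stood out on the lower side, with 3071 and 2977 in WT and 1166 and 1148 in the KO-labelled libraries. It fell by 61.7% (log2 fold change -1.39 ± 0.09, DESeq2 adjusted p = 4.19e-46). *Chd7*, *Bcl11b* and *Hdac11* were the 3 of the 66 genes that passed the study's rule, about the 4.51% share of all genes tested. *Smarca1*, an ISWI ATPase, was at -0.59 ± 0.18 (DESeq2 adjusted p = 0.00482), and *Smarcb1*, a core BAF subunit, at -0.39 ± 0.08 (1.99e-05). *Smarcb1* was at -0.05 (0.763) with chromosome medians removed. *Smarca1* was not called without WT replicate 2 (0.215), KO-labelled replicate 1 (0.0562) or KO-labelled replicate 2 (0.154).

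Finally, 4 pluripotency genes known to be held down by NuRD in mESCs were examined. *Tbx3* had 8245 and 8848 normalized counts in WT and 14478 and 14984 in the KO-labelled libraries, a rise of 72.3% (log2 fold change 0.79 ± 0.07, DESeq2 adjusted p = 2.17e-26), and was at 0.73 (1.26e-22) with chromosome medians removed. *Zfp42* was higher by 0.23 ± 0.08 (DESeq2 adjusted p = 0.0149), but was not called with chromosome medians removed (0.255) or without any 1 of the 4 libraries (0.118 to 0.167). *Klf5* was lower, at -0.28 ± 0.09 (DESeq2 adjusted p = 0.00811), a call lost without WT replicate 2 (-0.15, adjusted p = 0.355), KO-labelled replicate 1 (0.159) or KO-labelled replicate 2 (0.0665). *Klf4* was at 0.01 ± 0.08 (0.924), or 0.22 (0.0193) with chromosome medians removed. The 4 genes thus showed no common direction.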

How the data were processed

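RNA was measured in 2 WT and 2 *Spen* KO clone 2 libraries, grouped and numbered by their titles. Libraries were stranded and ribosomal RNA was depleted. The authors mapped paired 75-base reads to mm9 with STAR and counted them over GENCODE vM1 genes using featureCounts. The deposited table holds raw counts. The labels name a NextSeq and the methods a HiSeq. Tool versions, the strand setting and the handling of multiply mapping reads were not given in the sources used here, so counts of genes with copies or overlaps are uncertain.

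The fit used DESeq2 1.42.0 in R 4.3.3 (Wald test on group, default settings, with p-values adjusted by Benjamini-Hochberg over 17710 genes). It was also run on counts simulated from its own fitted means and dispersions. Such counts hold no chromosome-wide shifts or clone differences, so that run cannot bear on them. Positive log2 fold changes are higher in KO-labelled libraries. Levels per kilobase used the union of exons, and paralog shares were compared by an exact permutation test. Copies were searched with BLAST 2.17.0, and coding sequences aligned with Biopython 1.88, in the NCBIM37 (mm9) reference. Of symbols with more than 1 identifier, the longest gene model was used.

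The text names all 10 subunits, the 5 genes of *Rbbp4*, *Rbbp7*, *Cdk2ap1*, *Chd3* and *Chd5*, *Spen*, and in each other list up to 3 called genes per direction by absolute log2 fold change, given a mean of 50 normalized counts or more. *Klf4* was added after its value was seen, to complete its list. The members and lists were chosen with earlier results of these data known. Alternatives were TMM and upper-quartile size factors, chromosome medians removed, a low-count filter (10 counts in 2 libraries), edgeR 4.0.16, a block for the replicate number, an adjusted p under 0.01, longest transcript length, and each library left out. Copies, neighbours within 1 Mb, Rbbp and Chd shares, and shares, sums and level orders with chromosome medians removed were added after seeing the data. Depth limits the precision of the lowest genes, and the reads carried no molecular identifiers.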

Additional observations from a re-analysis of the deposited data

How the results depend on the processing

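TMM and upper-quartile size factors, the low-count filter and edgeR moved the counts of called NuRD genes by at most 1 in either direction. Removing chromosome medians left 1 NuRD gene higher (from 3) and 19 companion genes higher (from 30) and moved the median of the NuRD genes from -0.18 to 0.02. *Mbd3* was then at 0.01 and *Hdac1* at 0.18, both with the sign turned. Without the fold minimum, 6 NuRD genes had an adjusted p under 0.001 (17.3% of all genes tested). *Hdac1*, not called in any setting, was also at 0.01 with upper-quartile size factors, and ranged from -0.11 to 0.05 with single libraries left out. *Cdk2ap1* ranged from -0.16 to 0.10, and the change in the *Mbd3* share from -0.108 to 0.0675 percentage points. Leaving out a library fits the lone library of its group as varying like the others. This gave 2 to 3 NuRD genes higher, 4 lower in each case, 16 to 21 companion genes higher and 5 to 10 lower. With longest transcript length the *Hdac1* share rose by 4.01 points. With chromosome medians removed the shares changed by 6.28 points (*Mta2*), 3.12 (*Hdac1*) and 1.24 (*Mbd3*, sign turned). Replicate numbers did not pair the libraries (correlation of deviations of same-numbered libraries -0.018 over 13306 genes). With the number as a replicate block 2 NuRD genes were higher and 4 lower, and 20 companion genes were higher and 8 lower. Over 39 named genes and 10 settings, 326 of 390 values kept direction and side of the threshold, 56 lost a call, 3 gained one and 6 turned sign, of which 1 (*Mbd3*) also lost its call. Where no value above shows it, the cause was not tested.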
